A study of Mus musculus with 10 samples.

Results

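The transcripts of 3 pacemaker channels and 2 transcription factors of the sinus node were examined in whole hearts of mouse embryos with and without the coxsackievirus and adenovirus receptor (CAR). The members Hcn2, Hcn3, Hcn4, Shox2 and Isl1 were given by name. Each was represented by the transcript cluster (a set of probes along the exons of a gene) whose annotation names that gene alone, the brightest where a gene has several, and each of the 5 genes had 1 such cluster. They are 5 of 19938 genes with a cluster of their own.

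RNA was taken from hearts at E10.5, where E stands for embryonic day, and hybridised to Affymetrix Mouse Gene 1.0 ST arrays, with 5 WT samples and 5 CAR KO samples. WT embryos were wild type and CAR KO embryos were knockout for CAR, both from breeding of CAR +/- mice of the line B6.Cg-Cxadr tm1/Fgr, and no treatment was given. Loss of CAR was global, not restricted to the heart, and each sample was a pool of 3 hearts, 15 hearts per genotype. The labels do not say whether samples of a genotype came from separate litters. The p-values measure the spread between these pools, which held different hearts. The shares of litter and of technical variation in this spread are not known.

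Hyperpolarization-activated cyclic nucleotide-gated (HCN) channels open when the membrane is hyperpolarized and carry the inward funny current, which drives the slow depolarization between heart beats. Cyclic AMP binds to them directly and shifts their opening, which links the beating rate to adrenergic and muscarinic signals. Hcn4 encodes the main isoform of the sinus node and is present in early cardiomyocytes of the heart tube, while Hcn2 and Hcn3 encode isoforms with a smaller part in the pacemaker. Shox2 is a homeodomain transcription factor of the venous pole that keeps the working myocardium programme, driven by Nkx2-5, out of the developing node. Isl1 is a LIM homeodomain factor of second heart field progenitors that persists in the sinus node and is also made in pharyngeal tissue and in neurons. At E10.5 the node is a small region at the inflow of the heart, so whole hearts carry its transcripts diluted by those of atria, ventricles and outflow tract. In such bulk samples, fewer cells of a type and less RNA per cell cannot be told apart.

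Hcn4 and Shox2 are the members that varied together over the samples, as described further on, and for this reason the 250 bases before their start sites are shown. The sequences are from RefSeq in GRCm38.p6, read 5′ to 3′ on the strand of the gene, from chr9:58822699-58822948 (plus strand) for Hcn4 and chr3:66981772-66982021 (minus strand) for Shox2. Capitals mark a match to any motif searched.
Hcn4: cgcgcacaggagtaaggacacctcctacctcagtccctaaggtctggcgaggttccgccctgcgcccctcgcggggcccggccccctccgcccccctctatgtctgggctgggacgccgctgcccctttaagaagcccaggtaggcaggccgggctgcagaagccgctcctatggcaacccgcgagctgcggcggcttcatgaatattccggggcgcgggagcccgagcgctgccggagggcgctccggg
Shox2: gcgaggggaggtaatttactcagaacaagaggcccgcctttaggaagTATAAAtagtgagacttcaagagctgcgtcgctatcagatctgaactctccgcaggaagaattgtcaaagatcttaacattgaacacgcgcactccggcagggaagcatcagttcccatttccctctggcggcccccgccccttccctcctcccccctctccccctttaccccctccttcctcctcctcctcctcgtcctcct
The Hcn4 window had a GC content of 71.2% and the Shox2 window of 55.6%. Both strands were searched for sites of the factors that pattern the node. The T-box site was searched as the letters GGTGTGA. For the factor NKX2-5 of working myocardium the letters were TCAAGTG. A site of GATA factors was taken as AGATAA. For homeodomain factors the letters were TAATTA, and for those of the ISL1 type CTAATG. The TATA box of basal transcription was searched as TATAAA. None of these motifs lies within another. The 1 match was TATAAA in the Shox2 window, with its first base 203 bases before the start site. Of 32526 promoters searched over the same length, 12.3% hold the letters TATAAA at any position on either strand. The letters of the GATA site are in 9.97%, those of the ISL1 type homeodomain site in 6.32% and those of the other homeodomain site in 4.84%. The letters of the T-box site are in 3.33% and those of the NKX2-5 site in 2.60%. A match to such short letters is a description of the window, and the absence of a match says only that the letters are not in it. Promoter windows were found for 4 of the 5 members. The member without one was Hcn3.

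The values are log2 signals as deposited, so a difference of 1 is a doubling. Means over 6.51 counted as above background, a level set by the 95th percentile of 1210 clusters of odorant and vomeronasal receptors, genes of sensory neurons. Array medians lay between 7.65 and 7.73, and correlations between samples between 0.987 and 0.998. Genotypes were compared by limma's moderated test over 28944 clusters with Benjamini-Hochberg adjustment, and single values also by exact permutation of the samples (two-sided). Precision is limited by the number of arrays, and arrays understate differences of dim genes. Cardiac myosin light chains were bright in every sample, with Myl7 between 13.04 and 13.43 and Myl2 between 13.35 and 13.72. Liver transcripts differed widely between pools, with albumin (Alb) from 6.28 to 12.90, and WT samples 2 and 5 and CAR KO sample 5 were the richest. WT sample 5 also stood above the other WT samples in markers of inflow, outflow and pharyngeal tissue and neurons. Among the inflow markers this held for those of mesenchyme, while it was the lowest WT sample in those of myocardium. Cxadr, which encodes CAR, checks the labels. Its signal was 8.28, 8.25, 8.46, 8.66 and 8.24 in WT samples 1 to 5 and 6.69, 6.56, 6.37, 6.47 and 6.23 in CAR KO samples 1 to 5. The genotypes did not overlap, and 3 CAR KO samples were under the background level. The difference was -1.91 on the log2 scale, with a standard error of 0.10 and an adjusted p = 1.40e-05 from limma.

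For none of the 5 members did the difference between WT and CAR KO hearts pass the test. All 5 lay above background. No member passed an adjusted p of 0.05 from limma, where 0.00345% of all clusters did, and no member had an unadjusted p under 0.05, where 2.4% did. No member had genotypes that did not overlap, where 0.359% of all clusters had. For 4 members a change of more than 1.5-fold, up or down, lay outside the 95% confidence interval, which held for 97.3% of all clusters. The exception was Shox2, the member with the widest spread between samples. The adjusted p from limma was 0.99997 for every member, and over 23 alternative settings no member was called.

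Hcn4 was well above background in every heart sample and close between the genotypes. The gene lies on chromosome 9 from 58822949 to 58863175 (GRCm38.p6). Its log2 signal was 11.61, 11.30, 11.15, 11.26 and 10.83 in WT samples 1 to 5. In CAR KO samples 1 to 5 it was 11.17, 11.47, 11.46, 11.06 and 11.30. WT samples held both the highest value (sample 1) and the lowest (sample 5), and the CAR KO samples all lay between them. The WT mean was 11.23 ± 0.28 and the CAR KO mean 11.29 ± 0.18 (SD, n = 5 each). CAR KO exceeded WT by 0.06 on the log2 scale (standard error 0.13, exact permutation p = 0.706), with a 95% confidence interval from -0.22 to 0.35. On the linear scale this interval runs from -14.3% to 27.1%. The sign of this difference turned when WT sample 5 was left out (-0.04) and when the 3 samples richest in liver transcripts were left out (-0.05). No cluster of the 1210 receptor clusters had a mean above that of Hcn4.

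Hcn2 and Hcn3, the isoforms that accompany Hcn4, were near the background level in both genotypes. Hcn2 lies on chromosome 10 from 79716634 to 79736108, and Hcn3 on chromosome 3 from 89146775 to 89160284. The log2 signal of Hcn2 was 7.28, 7.20, 7.18, 7.36 and 7.15 in WT samples and 7.16, 7.28, 7.25, 7.32 and 7.20 in CAR KO samples. All 10 values of Hcn2 lay within 0.21 on the log2 scale, and both genotypes spanned nearly the same range. Hcn2 averaged 7.24 ± 0.08 in WT and 7.24 ± 0.07 in CAR KO (SD, n = 5 each), a log2 difference of 0.01 (95% confidence interval from -0.12 to 0.14, exact permutation p = 0.889). The log2 signal of Hcn3 was 7.19, 7.26, 7.06, 7.16 and 7.14 in WT samples and 7.14, 7.25, 7.05, 7.35 and 7.08 in CAR KO samples. CAR KO sample 4 was the highest for Hcn3 and CAR KO sample 3 the lowest, so the CAR KO range enclosed that of WT. The Hcn3 difference was 0.01 on the log2 scale (95% confidence interval from -0.14 to 0.16, exact permutation p = 0.921), with means of 7.16 ± 0.07 in WT and 7.17 ± 0.12 in CAR KO (SD, n = 5 each). A mean above that of Hcn2 was found in 14 of the 1210 receptor clusters, and above that of Hcn3 in 17. The Hcn3 values also followed the mean of these receptor clusters from array to array (Pearson r = 0.910, permutation p = 0.00038, adjusted p = 0.0104 over 55 relations, Spearman rho = 0.806, permutation p = 0.00707, adjusted p = 0.130). The receptor mean ran from 4.77 to 5.00 over the arrays, and r was 0.790 without the 2 samples farthest from its median. For Hcn2 the corresponding r was 0.502 (permutation p = 0.138, adjusted p = 0.399).

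Shox2 had a wide spread between samples in both genotypes. The gene lies on chromosome 3 from 66971723 to 66981771. Its log2 signal was 8.25, 8.07, 6.68, 7.91 and 7.26 in WT samples 1 to 5. In CAR KO samples 1 to 5 it was 7.01, 8.25, 8.94, 7.002 and 7.96. WT sample 3 was the lowest and CAR KO sample 3 the highest, and each genotype held samples near 7 and samples above 8. The range over the 10 samples was 2.26 on the log2 scale, or 4.78-fold. The WT mean was 7.64 ± 0.65 and the CAR KO mean 7.83 ± 0.83 (SD, n = 5 each). CAR KO exceeded WT by 0.20 on the log2 scale (standard error 0.39, exact permutation p = 0.706). The 95% confidence interval ran from -0.66 to 1.06, or from -36.9% to 108% on the linear scale. A change of 1.5-fold in either direction was therefore not detectable for Shox2 with these samples. The difference fell to -0.08 without CAR KO sample 3 and to -0.04 without WT sample 3.

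Isl1 had higher signals in most CAR KO samples, and the difference did not pass the test. The gene lies on chromosome 13 from 116298270 to 116309688. Its log2 signal was 8.49, 8.36, 8.77, 8.51 and 9.15 in WT samples 1 to 5. In CAR KO samples 1 to 5 it was 8.86, 8.66, 9.10, 8.87 and 9.09. WT sample 5 was the highest of all 10, while the WT samples 1, 2 and 4 were the lowest. The WT mean was 8.66 ± 0.31 and the CAR KO mean 8.92 ± 0.18 (SD, n = 5 each). CAR KO exceeded WT by 0.26 on the log2 scale (standard error 0.14, unadjusted p = 0.0904 from limma, exact permutation p = 0.143), with a 95% confidence interval from -0.05 to 0.57. It was above 0 in each of the 23 alternatives, from 0.19 to 0.38, but these reuse the same samples and are no separate evidence. Without WT sample 5 it was 0.38 (unadjusted p = 0.00463 from limma), and without CAR KO sample 2 it was 0.32 (unadjusted p = 0.0488 from limma). These samples hold the highest WT and the lowest CAR KO value, so leaving out either enlarges the difference. With any other single sample left out the unadjusted p from limma lay between 0.0907 and 0.211. The adjusted p from limma lay between 0.775 and 0.99999 over these alternatives.

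**Figure D1:**
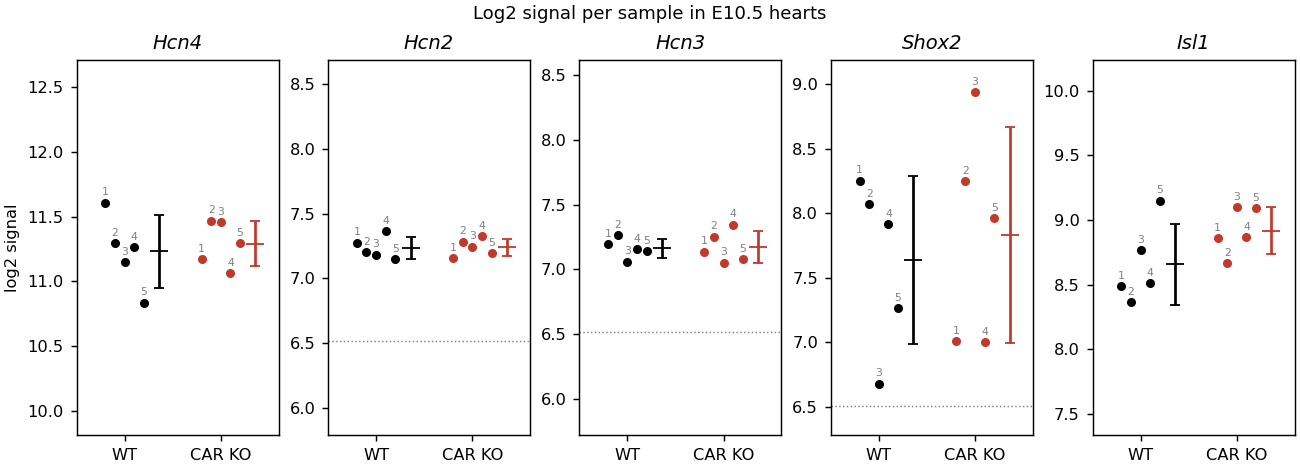
Log2 signal (vertical axis) of each member in WT (black) and CAR KO (red) samples, 1 point per sample with its number, beside the mean and SD of 5 samples. All panels span the same number of log2 units, and a dotted line stands at 6.51, the background level, where it falls in the panel. The genotypes overlap for every member, and the Shox2 points spread over 2.26 log2 units while the Hcn2 points stay within 0.21.

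The spread between samples of a genotype set Shox2, Isl1 and Hcn4 apart from the other isoforms. The SD within genotypes was 0.748 for Shox2, larger than that of 99.5% of the 14661 genes above background. It was 0.256 for Isl1 and 0.234 for Hcn4, larger than that of 93.0% and 90.4% of these genes. For Hcn3 it was 0.102 and for Hcn2 0.0760, below the median SD of 0.128 over these genes. Among genes of similar signal the shares with a smaller SD were 99.1% for Shox2, 91.0% for Isl1, 95.4% for Hcn4, 13.1% for Hcn3 and 4.14% for Hcn2.

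The network that patterns the sinus node was also examined besides the members. Of 18 genes listed, 17 had a cluster of their own, all above background. None passed an adjusted p of 0.05 from limma, 1 was lower in CAR KO at an unadjusted p under 0.05 (1.43% of all clusters were), and none was higher (0.978% were). The intervals of 16 lay within a 1.5-fold change. The exception was Nr2f2, a nuclear receptor of atrial cells, at 0.09 (95% confidence interval from -0.45 to 0.63). The median log2 fold change was 0.0037, against 0.0074 over all genes. The 1 gene was Tbx18, a T-box factor of the sinus horns and of the epicardium. Tbx18 averaged 10.13 ± 0.11 in WT and 9.82 ± 0.22 in CAR KO (SD, n = 5 each), a log2 fold change of -0.31 (standard error 0.10, unadjusted p = 0.0100 and adjusted p = 0.99997 from limma, exact permutation p = 0.0317). Its 95% confidence interval ran from -0.53 to -0.09, and the genotypes overlapped. Tbx3, which represses the working programme in the node, differed by 0.04 (95% confidence interval from -0.29 to 0.37). Tbx5, an activator of Shox2 in the venous pole, differed by -0.0024 (95% confidence interval from -0.21 to 0.20). Nkx2-5, the factor of working myocardium that opposes the node programme, differed by 0.05 (95% confidence interval from -0.20 to 0.31). Bmp4, a ligand whose signal lies downstream of Shox2, differed by -0.08 (95% confidence interval from -0.29 to 0.12). The markers of working myocardium that the node lacks were also listed: Nppa differed by -0.09, Gja1 by -0.14 and Gja5 by 0.07 on the log2 scale, with intervals within a 1.5-fold change.

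Channels and calcium handling genes that work with HCN channels in the pacemaker gave 19 of 21 genes with a cluster of their own, all above background. None passed an unadjusted p of 0.05 from limma, 17 intervals lay within a 1.5-fold change, and the median log2 fold change was 0.02. The exceptions to the 1.5-fold limit were Cacna1g, a T-type calcium channel, at -0.23 (95% confidence interval from -0.66 to 0.20), and Casq2, the calcium buffer of the sarcoplasmic reticulum, at -0.35 (95% confidence interval from -0.79 to 0.08). Cacna1d, an L-type channel of the pacemaker, differed by 0.10 (95% confidence interval from -0.17 to 0.36).

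Proteins that bind HCN channels or set their cyclic AMP gave 18 of 23 genes with a cluster of their own, 17 of them above background. None had an unadjusted p under 0.05 from limma, 17 intervals lay within a 1.5-fold change, and the median log2 fold change was -0.04. Pex5l, which encodes the HCN partner TRIP8b, differed by 0.10 (95% confidence interval from -0.10 to 0.31). Kcne2, a small subunit that can join HCN channels, differed by 0.05 (95% confidence interval from -0.18 to 0.28). Chrm2, the muscarinic receptor that slows the heart, differed by -0.25 (95% confidence interval from -0.52 to 0.03). Popdc2, a cyclic AMP binding membrane protein whose loss disturbs pacemaking, differed by -0.06 (95% confidence interval from -0.22 to 0.09). Cav3, a caveolin of muscle membranes, had the 1 interval past the limit, at -0.24 (95% confidence interval from -0.62 to 0.14). The 3 lists share genes with each other and with the marker lists used for the tissues.

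**Figure D2:**
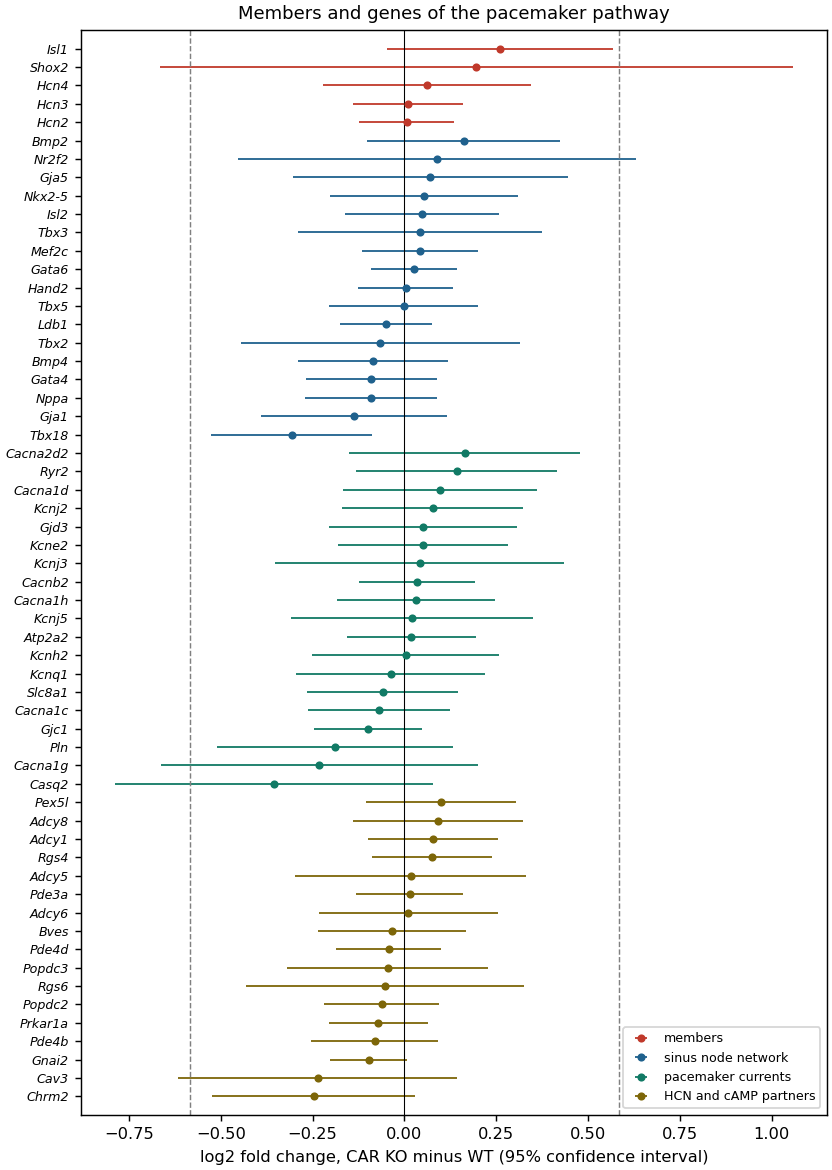
Log2 fold change, CAR KO minus WT, with its 95% confidence interval (horizontal axis) for the 5 members (red), the sinus node network (blue), the pacemaker currents (green) and the HCN and cyclic AMP partners (olive). Dashed lines mark a 1.5-fold change in either direction. Most intervals hold 0 and stay within the dashed lines, Tbx18 lies below 0, and Shox2 has an interval from -0.66 to 1.06.

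Because node tissue sits at the inflow, each member was set against a per-sample level of inflow genes, the mean log2 signal of 16 markers that include no member. This mean was 9.40, 9.37, 9.38, 9.44 and 9.62 in WT samples 1 to 5 and 9.11, 9.59, 9.71, 8.83 and 9.59 in CAR KO samples 1 to 5. CAR KO samples 4 and 1 were the lowest, and CAR KO sample 3 the highest. The genotypes differed by -0.08 (exact permutation p = 0.651), with 9.44 ± 0.10 in WT and 9.37 ± 0.38 in CAR KO (SD, n = 5 each). The markers did not rise and fall as 1 group, with a median correlation between markers of 0.164. Against this mean r was 0.622 for Shox2 (permutation p = 0.0528, adjusted p = 0.245, rho = 0.552, permutation p = 0.105, adjusted p = 0.338), and 0.423 without the 2 samples farthest from the median. For Hcn4 it was 0.288, for Isl1 0.222, for Hcn2 -0.207 and for Hcn3 -0.592. None of the 5 relations passed adjustment over 55 relations of members with 11 means (adjusted p from 0.245 to 0.734).

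Split by tissue, the 8 markers of inflow myocardium had a mean that moved with Hcn4 and Shox2. These markers are Tbx18, Tbx3, Vsnl1, Smoc2, Cpne5, Rgs6, Ntm and Cacna2d2. Their mean was 10.21, 10.06, 9.91, 10.15 and 9.63 in WT samples 1 to 5 and 9.77, 10.28, 10.26, 9.58 and 9.99 in CAR KO samples 1 to 5. The genotypes differed by -0.02 (exact permutation p = 0.929). Hcn4 followed this mean with r = 0.889 (permutation p = 0.00019, adjusted p = 0.0104) and rho = 0.891 (permutation p = 0.00099, adjusted p = 0.0544). The relation of Hcn4 held with r = 0.829 without the 2 samples farthest from the median, and between 0.87 and 0.91 with each sample left out in turn. It passed adjustment for r and not for rho. Members and marker lists were chosen with earlier results of these data known. The p-values of their relations, here and below, are therefore descriptive. Shox2 followed the same mean with r = 0.828 (permutation p = 0.00398, adjusted p = 0.0730) and rho = 0.842 (permutation p = 0.00311, adjusted p = 0.0855), which did not pass. Without the 2 samples farthest from the median r was 0.858 for Shox2. Isl1 gave r = -0.417 (permutation p = 0.226, adjusted p = 0.461), with WT sample 5 at the top of Isl1 and near the bottom of the marker mean. Samples low in the marker mean (CAR KO samples 4 and 1 and WT sample 5) were low in Hcn4 and Shox2, and they came from both genotypes. With each of the 8 markers left out in turn, r lay between 0.83 and 0.91 for Hcn4 and between 0.69 and 0.85 for Shox2, in both cases lowest without Vsnl1.

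**Figure D3:**
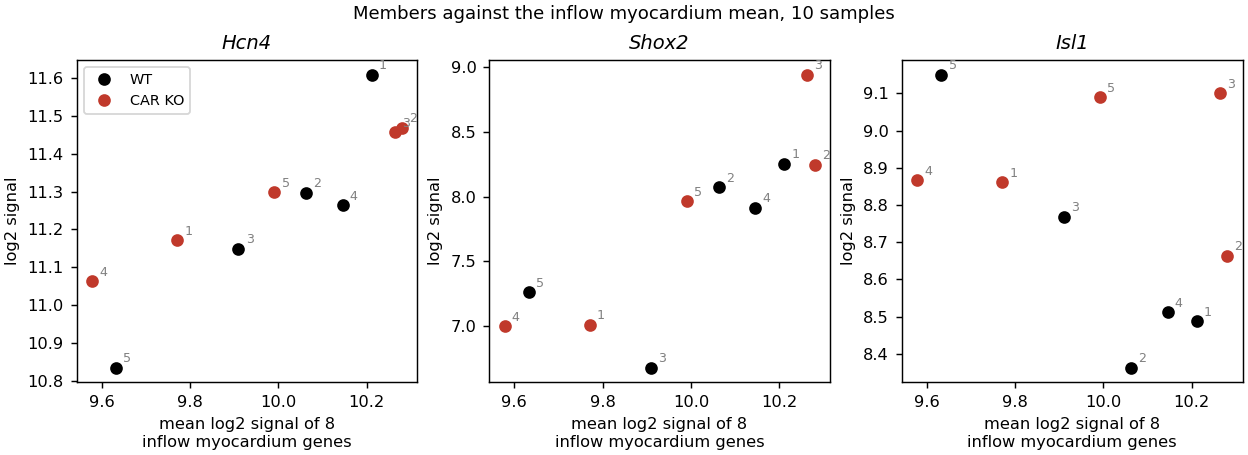
Log2 signal of Hcn4, Shox2 and Isl1 (vertical axes) against the mean log2 signal of 8 inflow myocardium genes (horizontal axis) in 5 WT (black) and 5 CAR KO (red) samples, numbered as in the labels. Hcn4 (r = 0.889) and Shox2 (r = 0.828) rise with the mean across both genotypes, and Isl1 (r = -0.417) does not.

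The atrial markers gave a similar picture for both genes, with r = 0.791 for Hcn4 (permutation p = 0.00697, adjusted p = 0.0810, rho = 0.758, permutation p = 0.0145, adjusted p = 0.133) and r = 0.777 for Shox2 (permutation p = 0.00736, adjusted p = 0.0810, rho = 0.758, permutation p = 0.0143, adjusted p = 0.133). Without the 2 samples farthest from the median r was 0.806 for Hcn4 and 0.603 for Shox2. Neither passed adjustment. Against the ventricular markers r was -0.160 for Hcn4 (permutation p = 0.636, adjusted p = 0.777) and -0.446 for Shox2 (permutation p = 0.200, adjusted p = 0.439). Hcn4 ran opposite to the outflow and pharyngeal markers (r = -0.744, permutation p = 0.0125, adjusted p = 0.115, rho = -0.467, permutation p = 0.178, adjusted p = 0.377), which did not pass either. It also ran opposite to the neuronal markers (r = -0.680, permutation p = 0.0340, adjusted p = 0.187, rho = -0.600, permutation p = 0.0729, adjusted p = 0.312), again without passing. Between the members themselves, 10 pairs were compared. Hcn4 and Shox2 were related by rho = 0.867 (permutation p = 0.00193, adjusted p = 0.0193) and r = 0.750 (permutation p = 0.0113, adjusted p = 0.113), and r was 0.905 without the 2 samples farthest from the median of Hcn4. This pair passed adjustment by rank and not by r, and no other pair passed by either. With each sample left out in turn r lay between 0.72 and 0.83 for the pair. How much of the shared variation came from the share of inflow tissue in each pool was not tested.

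Single genes show which markers moved with each member. The correlations in this paragraph are over the 10 samples after each genotype's mean was subtracted, and are given as a description. Hcn4 had r over 0.7 with 5 of the 8 inflow myocardium markers: Vsnl1 (0.86), a calcium sensor and marker of the sinus horns, Rgs6 (0.85), a regulator of muscarinic signalling in the pacemaker, Cacna2d2 (0.84), a calcium channel subunit, Cpne5 (0.84) and Tbx18 (0.71). It had no such value with the 8 mesenchymal markers, and with the atrial markers 3 of 8, which were Stard10 (0.80), Myl7 (0.78) and Kcna5 (0.74). Values under -0.7 with Hcn4 were those of Tbx1 (-0.76) among 10 outflow and pharyngeal markers and of Stmn2 (-0.85) and Ina (-0.73) among 9 neuronal markers. Tbx1 (10.03) and Stmn2 (9.46) were highest in WT sample 5, where Hcn4 was lowest. Shox2 had r over 0.7 with Vsnl1 (0.87) and Smoc2 (0.77) among the myocardial markers, with Nr2f1 (0.78) among the mesenchymal markers, and with Stard10 (0.90), Nr2f2 (0.86) and Kcna5 (0.81) among the atrial markers. Among the outflow and pharyngeal markers Sema3c ran opposite to Shox2 (-0.75). With Tbx3 the values were -0.01 for Shox2, -0.28 for Hcn4 and 0.80 for Isl1.

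Vsnl1, chosen after its values were seen, varied far more between pools than most other inflow myocardium markers. Its range was 2.92 on the log2 scale. The range was 0.62 for Tbx18, 0.80 for Tbx3, 0.80 for Cpne5, 0.91 for Rgs6, 0.94 for Smoc2 and 0.96 for Cacna2d2. The log2 signal of Vsnl1 was 12.43, 12.28, 11.06, 12.30 and 10.03 in WT samples 1 to 5. In CAR KO samples 1 to 5 it was 10.45, 12.92, 12.95, 10.04 and 12.51. The signal was low in WT samples 3 and 5 and in CAR KO samples 1 and 4, the same 4 samples in which Shox2 was lowest. CAR KO exceeded WT by 0.15 on the log2 scale, with a 95% confidence interval from -1.28 to 1.58.

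**Figure D4:**
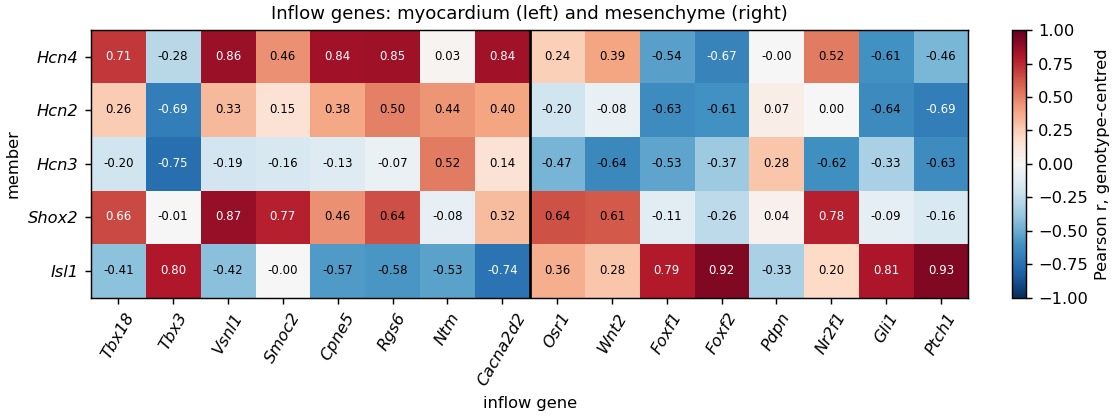
Pearson r over 10 samples, after subtraction of genotype means, between each member (rows) and each inflow marker (columns), with myocardial markers left and mesenchymal markers right of the line; red is positive and blue negative. Hcn4 and Shox2 are red with Vsnl1 (0.86 and 0.87), and Isl1 is red with Ptch1 (0.93) and Foxf2 (0.92). Foxf2 was under the background level in several samples of both genotypes.

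The markers with high correlation to Isl1 came from several lists. With the same centring, Isl1 had r over 0.7 with 1 of the 8 inflow myocardium markers, Tbx3 (0.80), and Cacna2d2 ran opposite (-0.74). Isl1 had r over 0.7 with 4 of the 8 mesenchymal markers, which were Ptch1 (0.93) and Gli1 (0.81), both targets of hedgehog signalling, and the forkhead factors Foxf2 (0.92) and Foxf1 (0.79). Among 10 markers of outflow and pharyngeal tissue 4 exceeded 0.7, among them Tlx1 (0.95) and Tbx1 (0.88), a factor of pharyngeal mesoderm. Other markers of that list ran against Isl1, among them Fgf8 (-0.74), Msc (-0.62) and Tcf21 (-0.53). The median over the list was -0.06, and the median correlation between its genes was -0.212. Of 11 foregut markers 4 exceeded 0.7, among them Shh (0.87), the ligand of the hedgehog pathway made by foregut endoderm, and Sox2 (0.87). Both were near the background level, with a mean of 7.28 for Shh and 6.92 for Sox2. The Shh values spanned only 0.34 on the log2 scale over the samples. Nkx2-1 (-0.43) and Foxa2 (-0.38) ran opposite to Isl1. Of 9 neuronal markers Nefl (0.72) exceeded 0.7, and Elavl3 (-0.72) and Stmn3 (-0.71) ran opposite. Values of this size were common for Isl1, where Nefl ranked 1173 of 14656 genes. For Hcn4 the 0.71 of Tbx18 ranked 104. Over all these genes r exceeded 0.8 for 529 with Isl1, 35 with Hcn4 and 32 with Shox2. A list with 1 marker over 0.7 is therefore not set apart for Isl1. WT sample 5 stood at the top of several of these genes. Tbx1 was 7.75, 8.17, 8.94, 8.02 and 10.03 in WT samples 1 to 5 and between 8.11 and 8.55 in CAR KO samples. The mean of the outflow and pharyngeal markers was 8.80 in WT sample 5, against 8.33 to 8.47 in the other WT samples and 8.37 to 8.50 in CAR KO samples. The WT samples had foregut means between 7.53 and 8.47, and the CAR KO samples between 7.65 and 8.54, with samples numbered 5 the highest in both. The mean of the receptor clusters, used above for background, also ran opposite to Isl1 with the same centring (r = -0.76). Without centring r was -0.551 (permutation p = 0.102, adjusted p = 0.369). How far the Isl1 correlations with single markers followed array background was not tested.

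Set against the list means without centring, Isl1 gave r = 0.726 with the foregut markers (permutation p = 0.0208, adjusted p = 0.143, rho = 0.648, permutation p = 0.0481, adjusted p = 0.294). With the outflow and pharyngeal markers it gave r = 0.632 (permutation p = 0.0191, adjusted p = 0.143, rho = 0.685, permutation p = 0.0353, adjusted p = 0.271), and with the inflow mesenchyme r = 0.523 (permutation p = 0.120, adjusted p = 0.369, rho = 0.527, permutation p = 0.123, adjusted p = 0.338). None passed adjustment. Without the 2 samples farthest from the median r was 0.485 for the foregut, 0.440 for the outflow and pharyngeal markers and 0.655 for the inflow mesenchyme. When WT sample 5 and CAR KO sample 5 were left out, r fell to 0.119 with the inflow mesenchyme and to 0.440 with the outflow and pharyngeal markers. In the same 8 samples the log2 fold change of Isl1 was 0.34 (unadjusted p = 0.0103 and adjusted p = 0.9993 from limma), and the relation of Hcn4 with the inflow myocardium mean kept r at 0.872. The part of adjoining tissue in the Isl1 values was not tested.

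**Figure D5:**
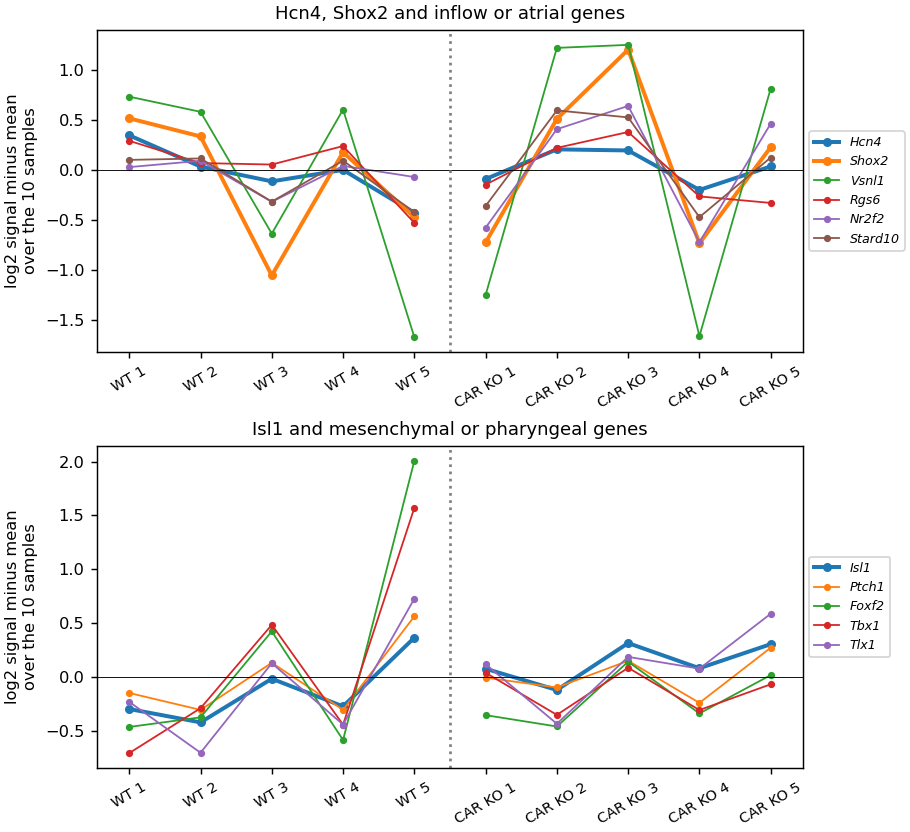
Log2 signal minus the mean over 10 samples (vertical axis) for each sample (horizontal axis), with Hcn4, Shox2 and inflow or atrial genes above, and Isl1 with mesenchymal or pharyngeal genes below. Lines join the points of a gene only to guide the eye, since samples have no order; Vsnl1 and Shox2 are low in WT samples 3 and 5 and in CAR KO samples 1 and 4, and Foxf2 and Tbx1 peak in WT sample 5.

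Over all 14656 genes above background that are not members, the 3 with the pattern most like each member were found with the same centred correlation. For Hcn4 they were Naaladl2 (0.92), Kank3 (0.92) and Ap3b2 (0.90), and the most opposed was Trip6 (-0.98). Naaladl2 ran from 6.97 in WT sample 5 to 8.27 in WT sample 1, the samples that were also lowest and highest for Hcn4. For Shox2 they were Pde10a (0.92), a phosphodiesterase, Necab2 (0.92) and Sstr4 (0.91), a somatostatin receptor, with Ccdc60 (-0.91) the most opposed. For Isl1 they were Jakmip2 (0.97), Ttc23 (0.96) and Tmem131l (0.96), with Figla (-0.98) the most opposed. For Hcn2 they were Tmem229a (0.89), Gm10433 (0.87) and Gnat1 (0.85), the last a transducin of rod photoreceptors, with Adgrg3 (-0.93) the most opposed. For Hcn3 they were Kbtbd11 (0.98), Abcb9 (0.97) and Galnt9 (0.97), with Dnal1 (-0.96) the most opposed. The number of genes over 0.9 was 226 for Hcn3 and 87 for Isl1, against 5 for Shox2, 4 for Hcn4 and none for Hcn2. These samples number 10 and the search covered 14656 genes, so such values order the genes and carry no test.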

How the data were processed

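RNA of E10.5 mouse hearts was measured in 5 WT and 5 CAR KO samples, grouped by the genotype in their labels, which number them 1 to 5. The deposited table holds log2 signals in 35556 rows. Per the submitters' processing notes MAS5 was used. Any further normalization by the authors is not stated. The values were used as they stood, with no pseudocount. Control rows (6612) were left out, which left 28944 transcript clusters, of which 21789 name 1 gene, 1621 several and 5534 none. Symbols are those of the platform annotation, and coordinates are from RefSeq (GRCm38.p6).

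CAR KO was compared with WT by limma 3.58.1 in R 4.3.3 (lmFit, eBayes), with Benjamini-Hochberg adjustment over all clusters. Exact permutation tests used all 252 splits of 5 against 5, whose smallest p is 0.00794, and permutation tests of correlations used 100000 resamples (scipy 1.17.1). Figures were drawn with matplotlib 3.10.9. The comparison was tested on simulated data. Members, gene lists and alternatives were chosen with earlier results of these data known, and the marker lists therefore support no tissue share by themselves.

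By rule, the members, Cxadr, list genes with an unadjusted p under 0.05 and the genes most like each member are named. The other list genes (among them Vsnl1, Ptch1, Foxf2, Tbx1, Tlx1, Shh and Stard10) and their values were chosen after their values were seen. Deviations of samples with the same number correlated between 0.07 and 0.56, and over 0.1 for 4 of 5 numbers. A value over 0.1 was required for every number, and the labels tie the numbers to no litter or day, so they were not taken as pairs. Alternatives were quantile normalization, median centring, a filter on dim clusters, clusters naming 1 gene, the methods' t-test, a robust prior with intensity trend, a block for the sample number, array weights, covariates, and leaving out samples. The mean over several rows of a gene could not be tried, since every member has 1 row. Added after the data were seen were leaving out WT sample 5 and CAR KO sample 5 together and leaving out single inflow markers. Some genes of the lists are not reported here.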

Additional observations from a re-analysis of the deposited data

Results flagged for a closer look

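WT sample 5 stood apart from the other WT samples in the means of 3 marker lists. For the inflow markers it was the highest WT sample, with a gap to the next of 0.7102 of the WT range. The mean of the mesenchymal inflow markers was 9.61 in WT sample 5 and 8.59 to 8.85 in the other WT samples. The mean of the myocardial inflow markers went the other way, with 9.63 in WT sample 5 and 9.91 to 10.21 in the others. For the outflow and pharyngeal markers the gap was 0.717 of the range, and for the neuronal markers 0.893. The neuronal mean was 7.65 in WT sample 5 and between 7.40 and 7.43 in the other WT samples. Isl1 was highest in this sample too, at 9.15, and Hcn4 lowest, at 10.83. In all, 26 groups of 5 samples were examined, and chance flags about 1 in 20 groups, or 1.3 of 26.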

How the results depend on the processing

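No member was called under any alternative, and the Isl1 difference alone kept its sign throughout. The others turned sign, at sizes within their confidence intervals. Hcn2 became -0.0063 with quantile normalization, -0.00036 with median centring, -0.057 with array weights, -0.021 without the 3 samples richest in liver transcripts (WT 2, WT 5, CAR KO 5) and -0.0037 without WT 5 and CAR KO 5. Hcn4 became -0.050 without those 3, -0.011 without the 4 richest (CAR KO 1 added) and -0.039 without WT 5 and CAR KO 5. Shox2 became -0.079 with array weights, and Hcn3 -0.0070 with the inflow mean as covariate. The cause was not tested.

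With 1 sample left out, differences ranged from -0.015 to 0.038 for Hcn2, -0.034 to 0.040 for Hcn3, -0.038 to 0.16 for Hcn4, -0.081 to 0.40 for Shox2, 0.19 to 0.38 for Isl1 and -0.16 to 0.058 for the inflow mean, which turned sign without CAR KO sample 4. Clusters called stayed at 1 (1 to 1) with each sample left out and became 2 with array weights. Clusters at an unadjusted p under 0.05 numbered 696, and 411 to 1029 with 1 sample left out (411 without WT sample 4), 1811 with array weights, 1214 and 1592 without the 3 and 4 liver-rich samples, and 1304 under a replicate block of sample numbers. With that block 1 cluster was called, Isl1 had an unadjusted p of 0.00686 (adjusted p = 0.969 from limma), and the closest WT sample had the same number for 4 of 5 CAR KO samples. Array weights gave Isl1 an unadjusted p of 0.0275 (adjusted p = 0.775 from limma), and leaving out the 3 liver-rich samples 0.0300 (adjusted p = 0.879 from limma).

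The relation with the inflow mean depended on its genes. With the myocardial markers alone r was 0.350 for Hcn2, 0.889 for Hcn4, 0.828 for Shox2 and -0.417 for Isl1, and with the mesenchymal markers alone -0.174 for Hcn4. Without the 2 samples farthest from the median r was -0.085 for Hcn4 and 0.818 for Isl1. Without WT 5 and CAR KO 5 it was 0.719 for Hcn4, 0.749 for Shox2 and -0.050 for Isl1. Without the 3 liver-rich samples it was 0.755 for Shox2 and -0.045 for Isl1. Quantile normalization gave 0.133 for Hcn2 and 0.681 for Shox2, median centring -0.713 for Hcn3, and genotype centring 0.658 for Shox2.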

Other observations

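The epicardium, which also expresses Tbx18, was measured by a list of 9 marker genes, all above background. All 9 had a lower mean in CAR KO than in WT hearts, 4 of them at an unadjusted p under 0.05 from limma and none after adjustment. Over all 19938 genes 9131 had a lower mean in CAR KO, and 1.43% of all clusters were lower at an unadjusted p under 0.05. The 9 markers moved together, with a median correlation between them of 0.599, so they are not separate observations. Other lists leaned to 1 side too. Of the ventricular markers 7 of 8 were lower in CAR KO, while 7 of 8 atrial and 9 of 11 foregut markers were higher. Upk3b, a uroplakin of mesothelial cells, averaged 12.16 ± 0.10 in WT and 11.71 ± 0.29 in CAR KO (SD, n = 5 each). Aldh1a2, the retinoic acid synthesizing enzyme of the epicardium, differed by -0.57 on the log2 scale, Sema3d by -0.45 and Upk1b by -0.22. The mean of the list differed by -0.25 on the log2 scale (exact permutation p = 0.0476, adjusted p = 0.476 over 10 list means). In the other marker lists 2 more genes were lower in CAR KO at an unadjusted p under 0.05 from limma, besides Tbx18. Myl2, the ventricular myosin light chain, differed by -0.15 on the log2 scale (unadjusted p = 0.0354 from limma). Dcx, a microtubule protein of young neurons whose mean was not above background, differed by -0.37 (unadjusted p = 0.0395 from limma). The adjusted p was 0.99997 for both.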
